A study of Mus musculus with 22 samples.

Results

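Loss of Wt1 was examined in embryonic fibroblasts of the mouse (MEFs), which are primary cultures from embryos, by comparing 4 Wt1-null arrays with 5 control arrays out of 22 arrays in the series. The members were chosen by their labels, which number the Wt1-null arrays 1, 3, 4 and 5 and the controls 1 to 5. Wt1-null replicate 2 was left out because its values were nearly those of a double array, as described with its values at the end. Wt1-null cells carried Wt1f/f, an allele that Cre recombinase deletes, and received adenoviral Cre. Control cells were labelled wild type and received adenoviral GFP. A further 5 oncogene arrays (a mutant oncogene switched on by Cre) and 7 double arrays (the oncogene and the Wt1 deletion, both by Cre) are used for side values only. RNA of every group was taken 7 days after infection. Floxed alleles, Cre and Wt1 loss all came with the Wt1-null label, so the virus and the alleles cannot be told apart from the loss of Wt1.

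Wt1 encodes a zinc finger transcription factor named for Wilms tumour, a childhood kidney cancer. It is best known in the developing kidney, gonad and mesothelium, where it can raise or lower the transcription of its targets, and its fingers bind GC-rich sites that the EGR factors also bind. The gene groups below are described with what their products do, as background.

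Values are RMA levels on the log2 scale, on which each added unit doubles the level, and each of 18193 genes is represented by 1 probe set. A gene is said to have risen or fallen where the limma fit of the 9 arrays gave a Benjamini-Hochberg adjusted p below 0.05 over all genes. By that test 904 genes (4.97%) were called, of which 355 (1.95%) rose and 549 (3.02%) fell in Wt1-null arrays. This count rests on arrays that are nearly alike. Wt1-null replicates 3 and 4 differed by a standard deviation of 0.161 over all probe sets, against 0.243 for the next closest pair within a group. Between replicates 3 and 4, 2 genes differed by 1 or more. With their mean counted as 1 array, 3 genes were called (0.0165%), namely Epha2, Mylk and Pom121, and 2928 genes had an unadjusted p below 0.05. Pom121 is named because the count is small. In that setting the gene lists described below held 0 called genes, apart from Epha2 and Mylk. Without Wt1-null replicate 1 the calls were 2505 of 18193 genes. List counts given below without that replicate have to be set against this larger share. List counts from the 9 arrays have to be set against 4.97% called, and against 7387 genes higher and 10806 lower of all 18193. In a fit that took its spread from 21 arrays of all 4 groups, 13 genes were called, 5 higher and 8 lower. They included Trib3, Chac1, Aldh1l2, Car6, Acot2 and Vldlr, which fell, and Errfi1 and Phlda1, which rose. The choice of the 9-array fit was made when earlier counts from these data were known, so every result below has to be read with the smaller counts beside it.

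**Figure D1:**
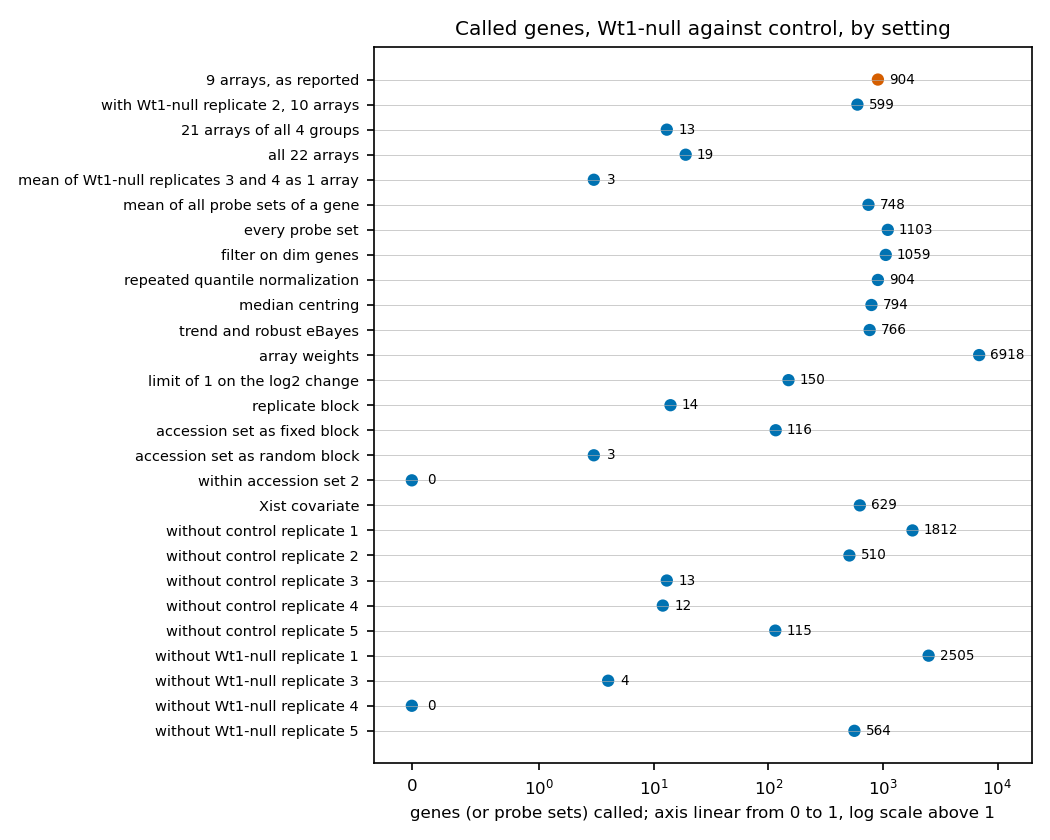
Number of genes called in Wt1-null against control under each processing setting, on an axis that is linear from 0 to 1 and logarithmic above 1 (for the setting with every probe set, probe sets are counted). The count was 904 in the 9 arrays, 3 with Wt1-null replicates 3 and 4 averaged, and 0 within accession set 2 or without Wt1-null replicate 4.

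The arrays also differed in ways that the labels do not give. Wt1-null replicate 1 was most like control replicate 2 (Pearson r = 0.990 over all probe sets), Wt1-null replicate 5 was most like an oncogene array, and control replicate 1 was most like Wt1-null replicate 1. Over the genes that rose, replicate 1 lay at a median of 74.5% of the way from the control mean to the Wt1-null mean, against 117%, 110% and 96.0% for replicates 3, 4 and 5. Over the genes that fell it lay at 59.7% of the way. Control replicate 1 lay at 30% for genes that rose and 18% for genes that fell, the furthest of the controls towards the Wt1-null mean. These genes were called from the same arrays, so the positions describe the arrays and test nothing. Accession numbers formed 3 sets, and only set 2, with Wt1-null replicates 3, 4 and 5 and control replicate 1, held both groups. Within it 0 genes were called by limma and 2841 had an unadjusted p below 0.05, with 1 control array to compare against. Changes within that set are given beside a named gene where they differ from those in the 9 arrays by over 1.5 times. Xist, the RNA that silences an X chromosome, was high in 2 of 5 control and 1 of 4 Wt1-null arrays. Without a statement on separate embryos or cultures in the labels, p-values cover only how far these arrays spread, which may be technical.

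The targeted gene gave no check of the deletion. Wt1 levels were 4.42, 4.46, 4.45, 4.32 and 4.22 in control replicates 1 to 5 and 4.72, 4.51, 4.35 and 4.42 in Wt1-null replicates 1, 3, 4 and 5. All 9 values lay between 3.65 and 5.06, the lowest and highest levels of 3 Y-linked genes over arrays with high Xist, which served as background. The change was 0.12 ± 0.10 (SE) with a limma adjusted p = 0.485.

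Fibroblast identity was checked with 13 markers, of which 0 were at background in all 9 arrays. The log2 of their summed level ran from 17.35 to 17.71 in control and from 17.48 to 17.94 in Wt1-null arrays, so the groups overlapped. Of markers of other cells, 2 of 10 epithelial (Cdh1 and Esrp1), 2 of 8 endothelial (Pecam1 and Emcn), 2 of 9 macrophage (Ptprc and Itgam), 3 of 12 skeletal muscle (Myf5 among them) and 3 of 7 adipocyte genes (Adipoq among them) were at background in all 9 arrays. Others in those lists were well above it, such as Krt19, an epithelial keratin (8.15 to 10.22), Acta1, skeletal muscle actin (10.32 to 13.09), and the adipocyte genes Fabp4 (10.04 to 12.52) and Pparg (7.12 to 9.69). The log2 of the list's summed level ran from 9.95 to 10.99 in controls and 10.08 to 10.73 in Wt1-null arrays for epithelium, 8.58 to 8.86 and 8.65 to 8.87 for endothelium, and 9.23 to 9.54 and 9.29 to 9.36 for macrophages. It ran from 10.95 to 13.22 and 11.90 to 13.10 for muscle, and 10.51 to 11.44 and 10.86 to 12.74 for adipocytes. For mesothelium it ran from 8.76 to 11.46 and 9.26 to 11.16, and 7 of 8 genes were higher with 0 called. For neural genes it ran from 9.65 to 11.13 and 10.09 to 10.63. Krt19, Acta1, Fabp4 and Pparg did not pass the test between groups, and their part in the results was not tested. Of 11 marker lists, 2 held a called gene, Fn1 for fibroblasts and Col2a1, a cartilage collagen, for chondrocytes. Col2a1 read 7.82, 8.69, 7.88, 7.50 and 7.80 in control replicates 1 to 5 and 9.23, 8.86, 8.78 and 9.15 in Wt1-null replicates 1, 3, 4 and 5, without overlap. The summed chondrocyte level overlapped, at 10.15 to 12.32 in control and 10.73 to 12.92 in Wt1-null arrays. In bulk RNA, fewer cells of a type and less RNA per cell cannot be told apart.

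Several of the largest falls, that of Trib3 first, were in genes of the amino acid stress response. In that response, shortage of an amino acid or stress in the endoplasmic reticulum (ER) leads to phosphorylation of the initiation factor eIF2 alpha, which favours translation of the transcription factor ATF4. ATF4 then switches on genes for amino acid transport, amino acid synthesis and charging of tRNA. Some of these genes have near their start the amino acid response element, to which ATF4 and C/EBP factors bind. Its form TGATGNAA was looked for on both strands in RefSeq windows of 250 bases before to 50 bases after each start (GRCm38.p6). Windows were found for 14452 of the 18193 genes. The motif stood in 3.24% of these genes and in 11 of the 27 ATF4 list genes with a window. Stretches around the matches are shown for list genes with large falls and for the transporter Slc7a11 and the synthetase Asns, which are classical members, with the motif in capitals. A match is a description of the letters and not a measured site, and Atf5 and Ddit3, which also fell, had none in their windows.
Trib3 (chr2:152344028-152344057, minus strand): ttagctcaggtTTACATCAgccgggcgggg
Chac1 (chr2:119351009-119351096, plus strand): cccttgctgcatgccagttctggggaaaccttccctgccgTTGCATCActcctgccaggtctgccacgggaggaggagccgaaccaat
Pck2 (chr14:55540123-55540210, plus strand): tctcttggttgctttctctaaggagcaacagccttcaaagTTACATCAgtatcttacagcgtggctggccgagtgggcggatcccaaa
Vldlr (chr19:27216780-27216867, plus strand): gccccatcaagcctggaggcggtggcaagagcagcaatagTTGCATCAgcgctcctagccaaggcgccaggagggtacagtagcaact
Slc7a11 (chr3:50443614-50443719, minus strand): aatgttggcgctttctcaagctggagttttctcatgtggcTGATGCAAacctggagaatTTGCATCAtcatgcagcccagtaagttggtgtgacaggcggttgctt
Asns (chr6:7693210-7693272, minus strand): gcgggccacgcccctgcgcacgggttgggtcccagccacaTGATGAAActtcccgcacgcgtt

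Trib3, a pseudokinase that dampens the ATF4 response, had the largest fall of all called genes. Its levels were 10.47, 10.83, 11.19, 10.85 and 10.79 in control replicates 1 to 5 and 9.56, 7.45, 7.52 and 6.82 in Wt1-null replicates 1, 3, 4 and 5. Every Wt1-null array was below every control array, with replicate 1 nearest to them, and the mean was 7.93-fold lower. The log2 change was -2.99 ± 0.45 (SE), with a limma adjusted p = 0.0213 that became 0.0903 with replicates 3 and 4 averaged. Within set 2 the change was -3.20.

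Chac1, which breaks down glutathione, read 10.98, 11.08, 11.14, 10.88 and 11.05 in control replicates 1 to 5 and 9.99, 8.95, 9.15 and 7.77 in Wt1-null replicates 1, 3, 4 and 5. The 5 control arrays lay within a narrow band and all Wt1-null arrays lay below it, again with replicate 1 closest. The log2 change was -2.06 ± 0.34 (SE) (limma adjusted p = 0.0222, and 0.0903 with the pair averaged). Pck2, the mitochondrial PEP carboxykinase, read 12.31, 12.44, 12.35, 12.23 and 12.45 in control replicates 1 to 5 and 11.83, 10.16, 10.14 and 9.95 in Wt1-null replicates 1, 3, 4 and 5. Replicates 3, 4 and 5 lay together, well below replicate 1, and the change was -1.84 ± 0.33 (SE) (limma adjusted p = 0.023).

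Atf5, a transcription factor related to ATF4, read 12.15, 12.04, 12.37, 12.02 and 12.14 in control replicates 1 to 5 and 11.92, 9.41, 9.53 and 9.17 in Wt1-null replicates 1, 3, 4 and 5. Replicate 1 was within 0.10 of the lowest control array and the other 3 arrays lay far below it, with a change of -2.14 ± 0.47 (SE) (limma adjusted p = 0.0367). Ddit3, the stress transcription factor CHOP, read 10.73, 9.94, 10.55, 10.12 and 10.46 in control replicates 1 to 5 and 9.83, 8.97, 8.93 and 8.40 in Wt1-null replicates 1, 3, 4 and 5, and changed by -1.33 ± 0.26 (SE). Vldlr, a lipoprotein receptor, fell by 1.36 on the log2 scale, and its levels of 8.56 to 9.49 in control and 7.32 to 8.06 in Wt1-null arrays did not overlap. Within set 2 its change was -2.10. Other Vldlr probe sets changed by -0.57 and -0.33 without passing the test.

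Of the 32 ATF4 list genes measured, 30 were lower in Wt1-null arrays, 10 fell and 0 rose, with a median change of -0.67. Over all genes 10806 of 18193 were lower and the median change was -0.05. The other called members were the amino acid transporters Slc6a9 (-1.27), Slc7a5 (-0.72) and Slc3a2 (-0.55) and the hormone Fgf21 (-0.46). Changes of Asns (-1.16), Cth (-1.09), Slc7a11 (-0.68) and Atf4 itself (-0.38) did not pass. Slc7a1, an arginine transporter, stood at 0.67, also short of the test. Without Wt1-null replicate 1, 22 of the 32 were called, against 2505 of all 18193 genes. With replicates 3 and 4 averaged 0 of the 32 were called. The list median was -1.11 within set 2.

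**Figure D2:**
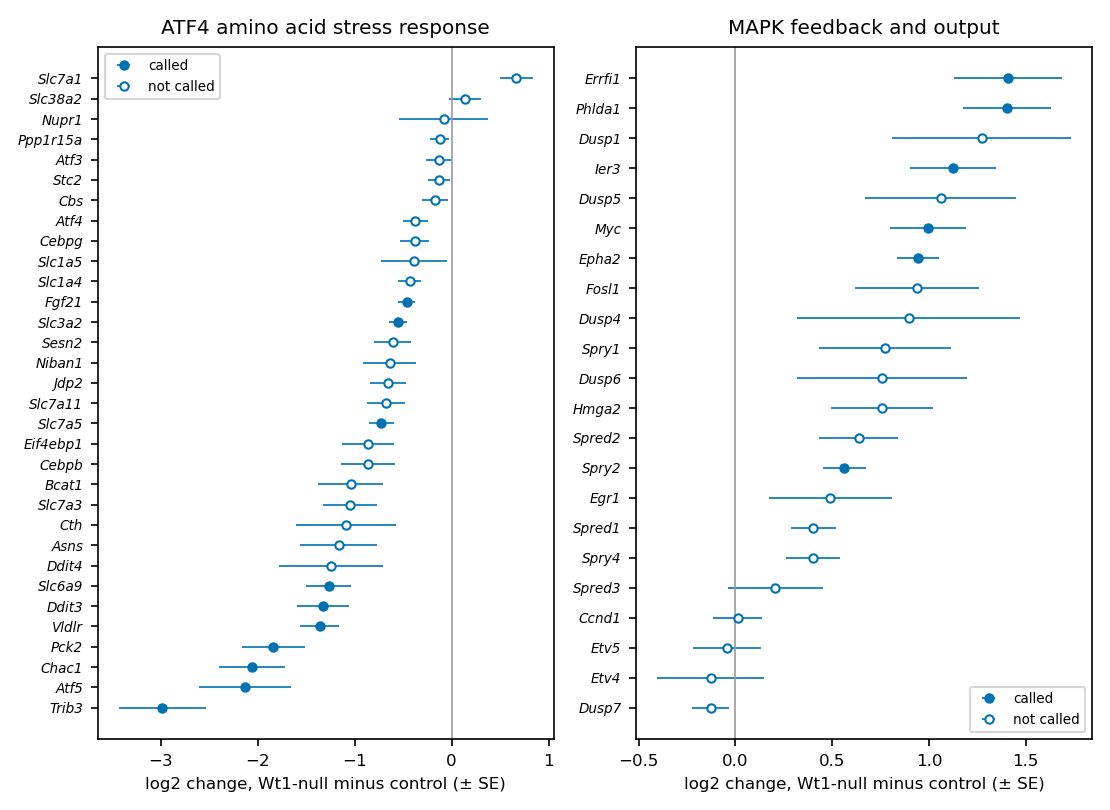
Log2 change in Wt1-null minus control arrays, with its SE from the limma fit, for each measured gene of the ATF4 list (left) and of the MAPK feedback list (right), where filled points passed the test. In the ATF4 list 30 of 32 genes lie below 0, and in the MAPK list 19 of 22 lie above 0.

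Most genes in a list of serine, folate and proline enzymes were lower alongside. Aldh1l2, which oxidises formyl-tetrahydrofolate in mitochondria, read 11.64, 10.91, 10.63, 10.59 and 11.26 in control replicates 1 to 5 and 10.16, 8.88, 8.91 and 8.57 in Wt1-null replicates 1, 3, 4 and 5. No values overlapped and the change was -1.87 ± 0.32 (SE) (limma adjusted p = 0.0222), and -2.85 within set 2. Aldh18a1, for proline synthesis, also fell (-0.89), although its replicate 1, at 12.41, lay inside the control range of 12.36 to 12.69. In the serine and folate list 9 of 11 genes were lower and those 2 were called, with a median of -0.70. Phgdh (-0.74), Psph (-1.04) and Shmt2 (-0.70) did not pass. Without Wt1-null replicate 1, 8 of the 11 were called.

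Cytosolic aminoacyl-tRNA synthetases, which load amino acids onto tRNA, were lower in 17 of 19 cases and 5 fell. They were Sars (-1.12), Aars (-0.97), Eprs (-0.64), Mars1 (-0.61) and Vars (-0.48). Eprs read 11.64, 11.84, 11.81, 11.75 and 11.90 in control replicates 1 to 5 and 11.53, 11.03, 11.10 and 10.95 in Wt1-null replicates 1, 3, 4 and 5, and Wt1-null replicate 1 was 0.11 below the lowest control. Without that replicate 10 of the 19 were called. The motif TGATGNAA stood in the windows of 5 of the 12 synthetase genes that had one, and of 0 of 10 genes of the serine and folate list.

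Folding factors of the ER, a neighbouring stress pathway, did not move as a block. Of 22 genes 13 were higher and 9 lower, with a median of 0.07. Herpud1 (-0.94) and the disulfide isomerase Pdia4 (-0.54) fell, while the sensors Ern1 (0.90) and Atf6 (0.70) rose. Within set 2, 9 of the 22 were higher and the median was -0.05. In the fit without Wt1-null replicate 1, 5 of the 22 were called, against 2505 of all 18193 genes.

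Several other metabolic genes fell. Car6, a secreted carbonic anhydrase, read 8.26, 8.04, 7.66, 6.93 and 7.48 in control replicates 1 to 5 and 6.57, 5.21, 5.14 and 5.26 in Wt1-null replicates 1, 3, 4 and 5. The groups were separate and the change was -2.13 ± 0.34 (SE) (limma adjusted p = 0.0214, 0.0903 with the pair averaged). Acot2, a mitochondrial acyl-CoA thioesterase, read 9.67, 9.84, 9.86, 9.56 and 9.99 in control replicates 1 to 5 and 9.38, 7.70, 7.62 and 7.61 in Wt1-null replicates 1, 3, 4 and 5, so replicate 1 was 0.18 below the lowest control and the rest were far lower. Acot1 (-0.77) is a near-identical copy, and probes may not separate the pair. In the thioesterase and fatty acid oxidation list 17 of 20 genes were lower, Acot1, Acot2 and Ech1 (-1.004) fell and Pdk4 (1.10), a kinase that turns off pyruvate dehydrogenase, rose. With replicate 2 added 2 of the 20 were called, and 8 without Wt1-null replicate 1.

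Of 18 NRF2 and glutathione genes 15 were lower and 3 fell, among them Gclm (-0.65), a subunit of the glutathione-making ligase, and Keap1 (-0.54), the repressor of NRF2. A second Gclm probe set stood at 0.23. Of 20 cholesterol synthesis genes 16 were lower and Mvd (-0.74), Lss (-0.67) and Mvk (-0.48) fell. A second Lss probe set stood at 0.68 without passing, and the change over the mean of its probe sets was close to 0. Fads1, a fatty acid desaturase, fell (-0.71), with a second probe set at -0.07. Without Wt1-null replicate 1, 9 of the 18 NRF2 genes and 6 of the 20 cholesterol genes were called, against 2505 of all 18193 genes.

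Respiratory chain genes were lower in 18 of 20 cases with 1 call, Ndufb5 (-0.44), a share near that over all genes. Without Wt1-null replicate 1, 5 of the 20 were called, against 2505 of all 18193 genes. After centring each array on its median 15 of 20 were lower and 0 were called. Interferon response genes were lower in 22 of 25 cases, against 10806 of 18193 over all genes. Of the 25, 2 fell (8%, near the 4.97% called over all genes), the transcription factors Irf1 (-0.64) and Irf9 (-0.67). Within set 2, 15 of these 25 interferon genes were lower, and with Wt1-null replicate 2 added 0 were called. Ndrg1, a gene induced by hypoxia, fell (-1.29, and -0.86 within set 2), as did Gla, the lysosomal alpha-galactosidase (-1.26).

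Among the remaining large falls was Artn, a ligand of the GDNF family, which read 9.01, 7.51, 8.63, 8.12 and 8.27 in control replicates 1 to 5 and 6.97, 6.06, 6.40 and 7.01 in Wt1-null replicates 1, 3, 4 and 5. The Wt1-null arrays all lay below the controls, by 0.50 or more. Gadd45a (-1.53, and -2.74 within set 2), a growth arrest and stress gene, Rab3il1 (-1.57), an exchange factor for Rab GTPases, and the tetraspanin Tspan11 (-1.498) fell too. Other Tspan11 probe sets changed by -0.74 and -0.61 without passing.

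**Figure D3:**
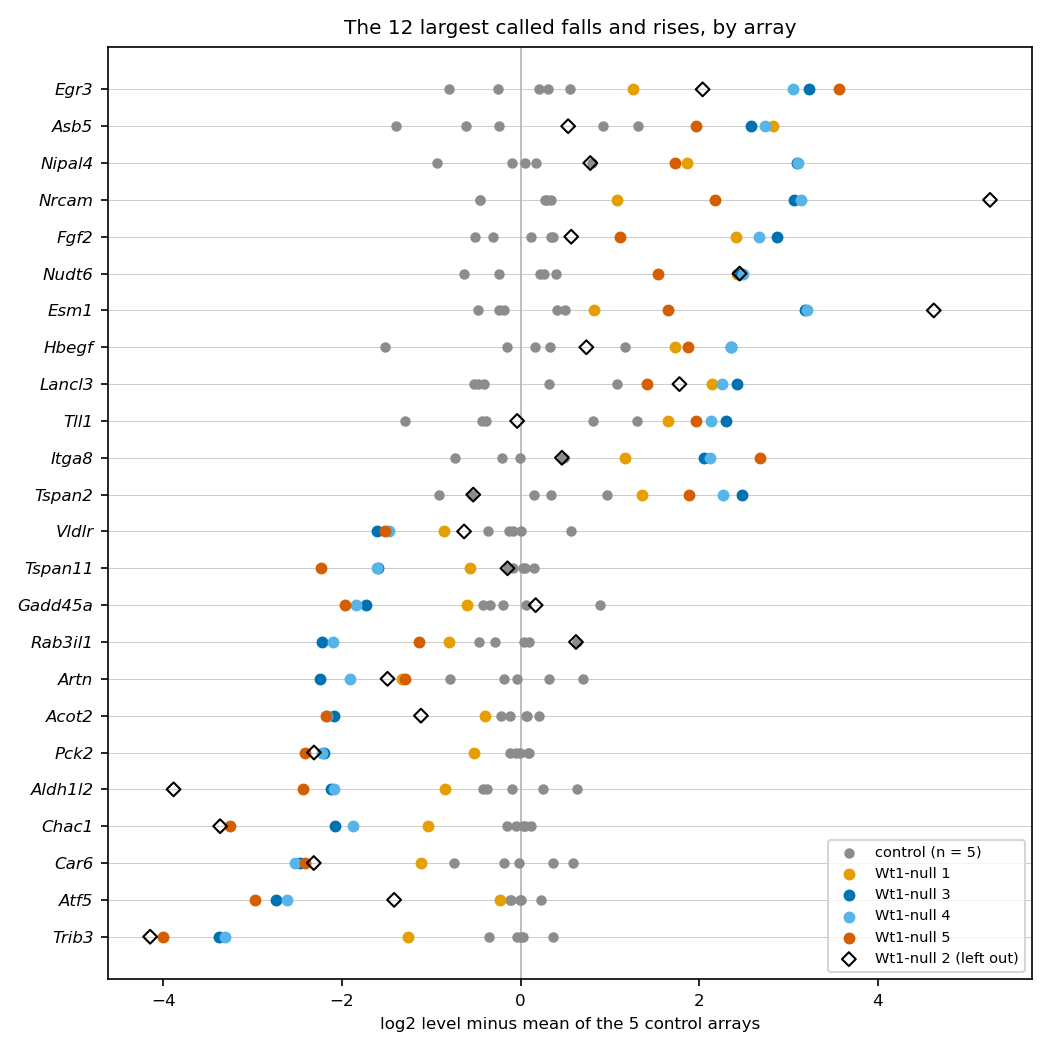
Log2 level minus the mean of the 5 control arrays for the 12 genes with the largest rises and the 12 with the largest falls by the naming rule, with grey points for controls and coloured points for Wt1-null replicates 1, 3, 4 and 5. Replicates 3 and 4 nearly coincide, replicate 1 is nearest to the controls in most falls, and the diamond is replicate 2, which was left out.

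The 12 largest rises by the naming rule included the EGR factor Egr3 and the growth factors Fgf2 and Hbegf. Growth factor receptors signal through the MAPK cascade to immediate early genes, which are transcribed within minutes and need no new protein. The cascade also switches on its own inhibitors, the dual-specificity phosphatases and Sprouty proteins, so that levels of these genes are often read as its output.

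Of the ligands, Hbegf, a ligand of the EGF receptor, read 9.94, 10.79, 9.78, 9.46 and 8.10 in control replicates 1 to 5 and 11.34, 11.97, 11.96 and 11.49 in Wt1-null replicates 1, 3, 4 and 5. The lowest Wt1-null value was 0.56 above the highest control value, and the change was 2.08 ± 0.43 (SE) (limma adjusted p = 0.0311, 0.114 with the pair averaged). Ereg, epiregulin, read 9.97, 10.70, 10.47, 10.83 and 9.40 in control replicates 1 to 5 and 11.14, 12.49, 12.37 and 12.35 in Wt1-null replicates 1, 3, 4 and 5, with replicate 1 close to the controls, and rose by 1.81 ± 0.34 (SE). In the list of EGF receptors and their ligands 7 of 11 genes were higher and 4 lower, the median was 0.06, and these 2 ligands were the ones called. Of the 11, 1 was called with replicate 2 added. Csf1, the macrophage growth factor, read 11.26, 10.89, 11.25, 11.29 and 11.37 in control replicates 1 to 5 and 12.10, 12.79, 12.75 and 12.98 in Wt1-null replicates 1, 3, 4 and 5, and its groups were at least 0.73 apart, with a change of 1.44 ± 0.17 (SE).

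Fgf2, basic fibroblast growth factor, rose by 2.27, from 4.80 to 5.68 in control to 6.43 to 8.19 in Wt1-null arrays. Its control levels were close to the top of the background range, 5.06, so the size of its rise is less certain. The Nudt6 gene overlaps it on the genome, with 5125 bases shared at chr3:37404982-37410106 (RefSeq, GRCm38.p6). Nudt6 read 8.65, 8.78, 7.76, 8.61 and 8.15 in control replicates 1 to 5 and 10.81, 10.85, 10.88 and 9.93 in Wt1-null replicates 1, 3, 4 and 5 and rose by 2.23, but a second Nudt6 probe set changed by -0.06. Signals of these overlapping genes are therefore uncertain. Bdnf, a neurotrophin, rose as well (1.496).

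Of receptors, Epha2, an ephrin receptor and a MAPK target, read 8.31, 8.43, 8.24, 8.24 and 8.15 in control replicates 1 to 5 and 9.22, 9.50, 9.06 and 9.10 in Wt1-null replicates 1, 3, 4 and 5. Its Wt1-null values were all at least 0.63 above the highest control. It rose by 0.94 ± 0.11 (SE) (limma adjusted p = 0.0114) and stayed called with replicates 3 and 4 averaged (adjusted p = 0.0394). Of 18 Eph receptors and ephrins it was the 1 gene called, a share near that over all genes. Igf1r, the IGF1 receptor, rose by 1.35, but 4 other probe sets for it changed by 0.12 to 0.49 and none of these passed. Plaur, the urokinase receptor, rose by 1.68 and Fzd7, a Wnt receptor, by 0.93 (0.50 within set 2).

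The MAPK feedback list had 19 of 22 genes higher, 6 that rose and a median of 0.76. Errfi1, an inhibitor of the EGF receptor, read 10.94, 11.07, 10.78, 10.81 and 10.45 in control replicates 1 to 5 and 11.48, 12.79, 12.83 and 11.77 in Wt1-null replicates 1, 3, 4 and 5. All Wt1-null values were higher than all control values, and it was among the 13 genes called with 21 arrays. Phlda1, whose levels were 10.26, 10.93, 10.28, 10.32 and 9.59 in control replicates 1 to 5 and 11.46, 11.88, 11.90 and 11.48 in Wt1-null replicates 1, 3, 4 and 5, was among them too, and rose by 1.40 ± 0.23 (SE). Ier3 (1.12), Myc (0.99) and Spry2 (0.56) rose. Dusp1 (1.27), Dusp5 (1.06), Dusp6 (0.76) and Fosl1 (0.94) did not pass, and Etv4 (-0.13), Etv5 (-0.04) and Ccnd1 (0.01) were near 0. With replicate 2 added 4 members were called, and with the pair averaged 1. Within set 2, 14 of the 22 were higher and the median was 0.46.

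Immediate early genes had 15 of 20 members higher, 7 that rose and a median of 0.53. Egr3, an EGR factor, had the largest rise of all called genes. Its levels were 6.51, 6.86, 6.05, 6.60 and 5.50 in control replicates 1 to 5 and 7.56, 9.53, 9.35 and 9.87 in Wt1-null replicates 1, 3, 4 and 5, with replicate 1 well below the others but above each control, and the change was 2.77 ± 0.44 (SE) (limma adjusted p = 0.0216, 0.0903 with the pair averaged). A second Egr3 probe set changed by -0.18 and did not pass, so the probe sets disagree.

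Fosl2, a partner in AP-1, read 10.77, 10.64, 10.79, 10.73 and 10.69 in control replicates 1 to 5 and 11.37, 11.84, 11.72 and 11.77 in Wt1-null replicates 1, 3, 4 and 5. Control values spread over 0.15 and the Wt1-null values were 0.58 or more above them. The others that rose were Egr2 (1.85), Nr4a1 (1.46), Srf (1.19), Klf6 (0.76) and Nr4a2 (0.61). Fos (0.39), Jun (0.56) and Egr1 (0.49) did not pass, and Jund stood at -0.65. With replicate 2 added 3 of the 20 were called.

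Genes of the contractile cytoskeleton, many of which are controlled by SRF, were higher in 19 of 20 cases, and 5 rose with a median of 0.40. SRF binds the CArG box, which was found in the windows of 1.58% of genes, of 3 of 18 contractile list genes and of 3 of 17 immediate early genes with a window. Srf itself and Vcl have such boxes, in capitals here.
Srf (chr17:46556175-46556284, minus strand): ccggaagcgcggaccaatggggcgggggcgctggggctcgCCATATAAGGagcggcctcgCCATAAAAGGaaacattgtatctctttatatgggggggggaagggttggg
Vcl (chr14:20929148-20929220, plus strand): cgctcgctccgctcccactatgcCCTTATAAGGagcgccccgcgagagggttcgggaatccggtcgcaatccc

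Mylk, the kinase that activates myosin, read 9.59, 9.68, 9.80, 9.74 and 9.64 in control replicates 1 to 5 and 10.47, 10.64, 10.72 and 10.81 in Wt1-null replicates 1, 3, 4 and 5. It had the smallest adjusted p of the named genes, 0.00708 by limma, and 0.0394 with the pair averaged, for a change of 0.97 ± 0.09 (SE). Another Mylk probe set changed by 0.17 and did not pass, and replicate 2, at 9.25, lay below all controls. Vcl, vinculin of focal adhesions, rose by 0.63, Myl9 by 0.63, Actn1 by 0.49 and Tpm1 by 0.43. Smooth muscle actin Acta2 (0.18) and Tagln (0.50) did not pass. With replicate 2 added 0 of the 20 were called.

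Targets of YAP and TAZ, coactivators that respond to adhesion and tension and act through TEAD factors, had 15 of 16 members higher, 6 that rose and a median of 0.76. Ankrd1 rose by 2.49, Crim1 by 1.57, Ccn2 by 1.34, Tead1 by 1.08 (0.63 within set 2), Ccn1 by 1.03 and Lats2, a kinase that restrains YAP, by 1.004. Ankrd1 read 10.22, 9.57, 8.61, 8.41 and 7.32 in control replicates 1 to 5 and 11.14, 12.01, 11.99 and 10.10 in Wt1-null replicates 1, 3, 4 and 5, and its Wt1-null replicate 5 lay below control replicate 1. Without replicate 1, 9 of the 16 were called, with replicate 2 added 2 and with the pair averaged 0.

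Among matrix genes, Tnc, tenascin C, rose by 1.30 (0.63 within set 2) and Fn1, fibronectin, by 0.90 (0.49 within set 2). Of 19 fibrillar matrix genes 8 were higher and Fn1 was the 1 gene called, a share near that over all genes. Itga8, an integrin that binds such matrix, read 8.63, 8.62, 7.94, 8.15 and 7.42 in control replicates 1 to 5 and 9.32, 10.20, 10.27 and 10.84 in Wt1-null replicates 1, 3, 4 and 5 and rose by 2.005 ± 0.32 (SE). In the TGF-beta and BMP list 20 of 25 were higher and Inhba (1.89), Fst (1.22) and Smad7 (0.53) rose. Without Wt1-null replicate 1, 6 of the 25 were called, against 2505 of all 18193 genes. Inhba encodes a subunit of activin and Fst encodes follistatin, which binds activin.

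Other large rises were Asb5 (2.53, and 1.51 within set 2), Nipal4 (2.45), Lancl3 (2.06, and 0.95 within set 2), the protease Tll1 (2.01, and 0.83 within set 2) and the tetraspanin Tspan2 (1.997). Nrcam (2.37), a neural adhesion molecule, and Esm1 (2.22) had control levels near background, so their size is less certain. The same limit holds for Nipal4, with a control mean of 5.27. For Nipal4 and Nrcam, other probe sets changed by at most 0.44. Further probe sets with much smaller changes, none of which passed, stood at 0.20 for Fosl2, 0.28 for Srf, 0.10 for Lats2, 0.23 for Fzd7, -0.01 for Inhba and -0.31 for Acot2. The heat shock genes Hspa1b (1.07) and Hspa1a (0.46, and 0.29 within set 2) rose, but they are near-identical copies that probes may not separate.

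Genes of cell division did not pass individually, apart from Rrm2. In the mitosis list 25 of 27 were higher with a median of 0.34 and 0 were called, and without Wt1-null replicate 1, 11 were. Their median in replicate 1 was -0.43 against the control mean and 0.49, 0.55 and 0.72 in replicates 3, 4 and 5. With replicate 2 added, 16 of 27 were higher and the list median change was 0.01. In DNA replication 24 of 28 were higher and Rrm2, a ribonucleotide reductase subunit, rose (0.92). It was the 1 gene called there, a share near that over all genes, and 15 of the 28 were called without Wt1-null replicate 1. With replicate 2 added 14 of 28 were higher, the median was 0.01 and 0 were called, with a limma adjusted p = 0.291 for Rrm2. Its replicate 1, at 12.46, lay within the control range. The lists of CDK inhibitors and p53 targets held 0 called genes, but Gadd45a (-1.53), which fell, was in neither list. Without Wt1-null replicate 1, 4 of 20 p53 targets and 0 of 7 CDK inhibitors were called, against 2505 of all 18193 genes. Cdkn1a, which encodes p21, read 12.34, 12.71, 12.46, 12.19 and 12.05 in control replicates 1 to 5 and 13.16, 12.34, 12.35 and 10.28 in Wt1-null replicates 1, 3, 4 and 5, so that its Wt1-null arrays lay on both sides of the controls.

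**Figure D4:**
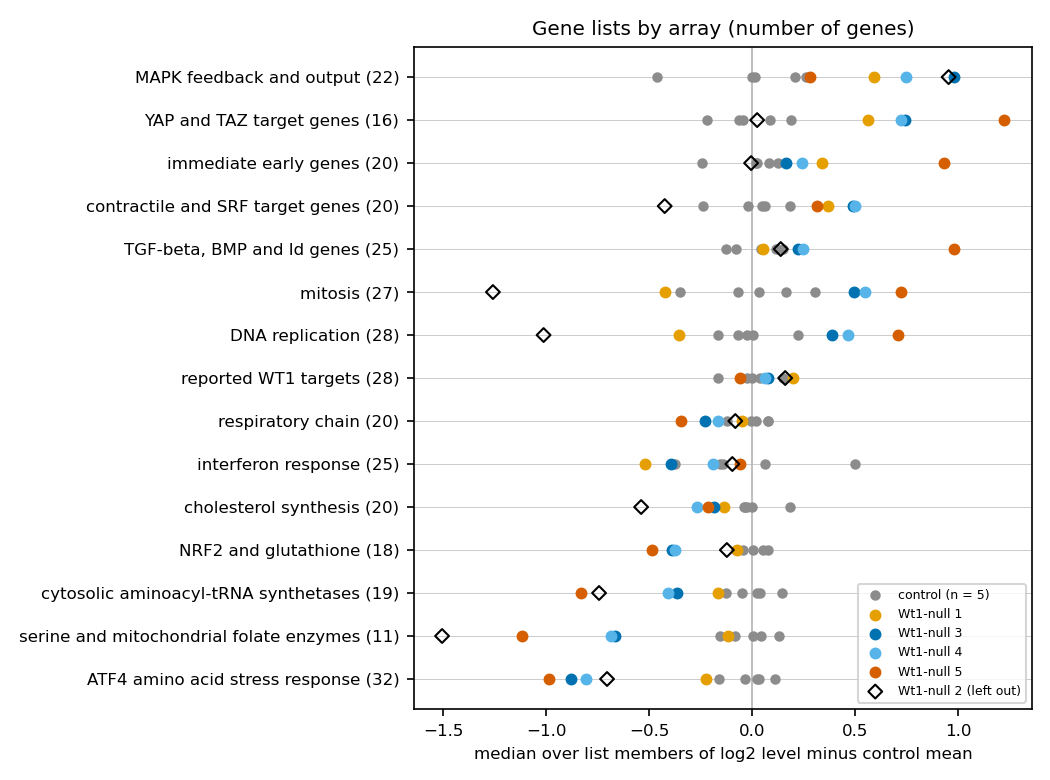
Median over list members of the log2 level minus the control mean, for 15 gene lists in each array (number of genes in brackets). For the ATF4 list Wt1-null replicates 3, 4 and 5 lie lowest and replicate 1 is nearest the controls, and for mitosis replicates 1 and 2 lie below the control mean while replicates 3, 4 and 5 lie above it.

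Genes reported elsewhere as WT1 targets did not move one way. Of 28 measured, 16 were higher and 12 lower, the median was 0.03, and Inhba, Csf1, Igf1r (1.35) and Myc rose. Spry1 (0.77), Bcl2 (0.24), Pdgfa (0.49) and Vdr (-0.11) did not pass. The GC-rich motif GCGNGGGNG, of the kind bound by EGR factors and WT1, stood in the windows of 20.9% of all genes, of 112 of 297 genes that rose (37.7%), of 94 of 451 that fell (20.8%) and of 7 of 22 reported targets. GC content of the windows also differed, at a mean of 63.6% for genes that rose, 60.4% for those that fell and 58.5% for all genes, and its part in the motif counts was not tested.

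In all 7 motifs were searched, chosen after the values were seen, on both strands. The stricter GCGTGGGNG, a case of the motif above, was in 3.34% of all genes, 12 of 297 that rose and 19 of 451 that fell. The stricter TTGCATCA, a case of TGATGNAA, was in 0.803% of genes and in 8 of 27 ATF4 list genes. TGATGNAA was in 6 of 297 genes that rose and 20 of 451 that fell, and the CArG box in 16 and 9. The AP-1 motif TGANTCA was in 7.54% of genes, 19 that rose and 15 that fell. The TEAD motif GGAATG was in 15.3% of genes, 53 that rose and 61 that fell, and in 8 of 12 YAP and TAZ list genes with a window.

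Over all 18193 genes, the 4 Wt1-null and 5 control arrays did not overlap for 1592 genes (8.75%), 494 higher and 1098 lower. Of the 904 called genes, 776 did not overlap and 150 changed by 1 or more, 110 of them upward. The split of rises and falls depended on scaling. It was 355 against 549 with the deposited values, 439 against 465 after repeated quantile normalization and 446 against 348 after centring each array on its median.

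The double and oncogene arrays offer a comparison of Wt1 deletion in which all arrays received Cre and no control array enters. It called 0 genes (0%) by limma, with 677 at an unadjusted p below 0.05, and 368 of the 904 genes had the sign they had in Wt1-null against control. For Trib3 the change was 0.24 ± 0.34 (SE), for Chac1 -0.05 ± 0.31, for Egr3 -0.03 ± 0.51, for Epha2 0.28 ± 0.16 and for Mylk -0.38 ± 0.41. Among lists in that contrast, 0 of 27 mitosis, 0 of 28 DNA replication and 2 of 20 contractile genes were higher. Their medians were -0.90, -0.565 and -0.14. In the ATF4 list 15 of 32 were higher and in the MAPK feedback list 13 of 22, against 9672 of 18193 over all genes. The interaction, the change in Wt1-null against control minus that in double against oncogene, passed for Trib3 (-3.22) and Car6 (-2.06), each with a limma adjusted p = 0.0481. It passed for 0 genes without oncogene replicate 4 and double replicate 4, with 3156 genes at an unadjusted p below 0.05.

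Levels in the 4 groups show where these differences lie. Trib3 averaged 10.82 ± 0.26 (SD, n = 5) in control, 7.84 ± 1.19 (SD, n = 4) in Wt1-null, 7.08 ± 0.53 (SD, n = 5) in oncogene and 7.32 ± 0.36 (SD, n = 7) in double arrays. For Car6 the same means were 7.67, 5.54, 5.30 and 5.23. Its oncogene and double means lay close to the top of the background range, 5.06. Car6 therefore had little room to fall in double against oncogene, which limits what its interaction can show. Oncogene against control shares its control arrays with the main comparison, and gave -3.74 for Trib3, -2.65 for Chac1, 2.88 for Egr3 and -0.58 for Mylk. The control arrays are the 1 group without Cre virus, so Cre and Wt1 loss cannot be told apart for genes such as Trib3.

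**Figure D5:**
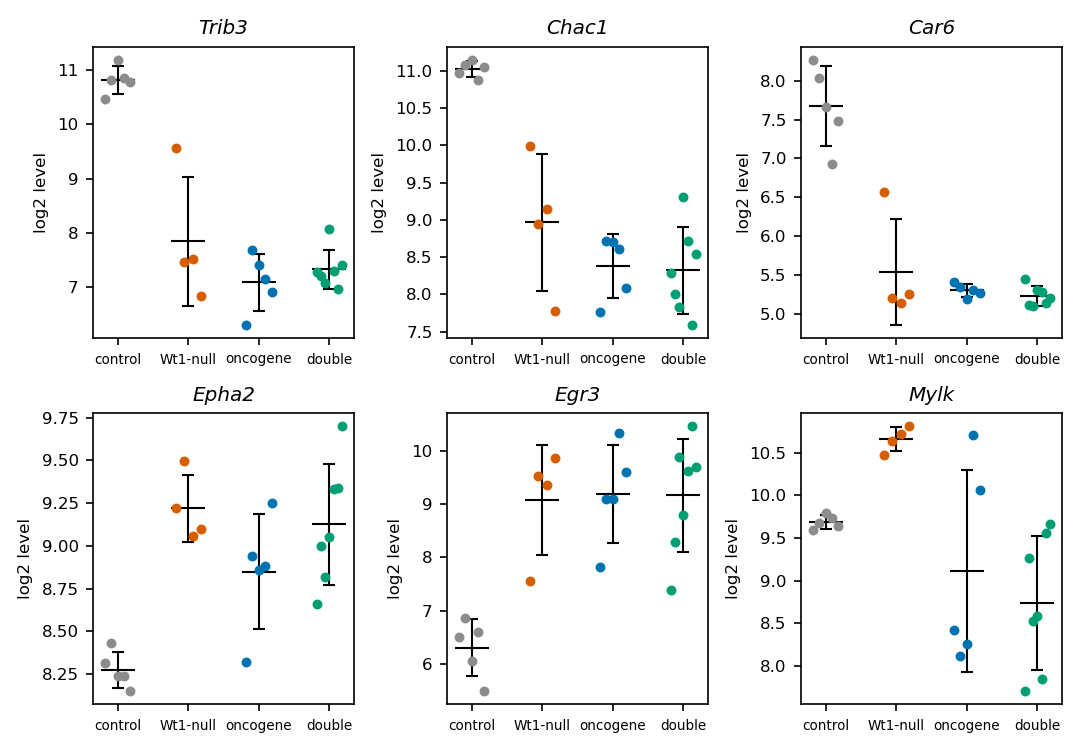
Log2 level of 6 genes in each control (n = 5), Wt1-null (n = 4), oncogene (n = 5) and double (n = 7) array, with the mean and SD as bars on axes that do not start at 0. For Trib3, Chac1 and Car6 the 3 groups given Cre lie below the controls, and for Mylk the Wt1-null arrays lie above the controls while most oncogene and double arrays lie below them.

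Wt1-null replicate 2 differed from double replicate 2 by a standard deviation of 0.152 over all probe sets, less than any other pair of arrays. With it added, 599 genes were called, 529 of them among the 904, and 1034 genes did not overlap between groups in place of 1592. Of the 355 genes that rose, its value lay above the control range for 214, within it for 112 and below it for 29. Of the 549 that fell, it lay below the range for 377, within it for 125 and above it for 47. The same control arrays served to call these genes, which favours the same side, and the share over all genes was not counted. Its levels of named genes varied in this respect. Replicate 2 read 6.68 for Trib3, 7.66 for Chac1, 9.14 for Epha2 and 5.88 for Fgf2, on the same side of all controls as the other Wt1-null arrays, but 8.93 for Srf and 7.45 for Tspan2, within the control range. Of the named genes, 17 lost their call with it added.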

How the data were processed

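Per the labels' protocols, biotin-labelled cRNA was hybridised to Affymetrix mouse genome arrays. The authors deposited log2 values made with Affymetrix Expression Console by RMA (background subtraction, quantile normalization, summary per probe set), per the submitters' processing notes; versions are not given in the sources used here. Values ran from 3.29 to 15.14 with array medians of 6.23 to 6.33, and precision is limited by how few arrays there were. Of 45101 probe sets, 34945 outside the 64 controls name 1 gene in the platform annotation (932 name several, 9160 none), and 34741 matched RefSeq GRCm38.p6. Each of 18193 genes was read from the probe set whose mean over 22 arrays was highest.

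Groups were compared with limma version 3.58.1 (R version 4.3.3) by lmFit and eBayes, with no pairing, and Benjamini-Hochberg adjustment over all genes. In a simulation with noise independent between genes, it recovered 38%, 84% and 96% of genes given log2 changes of 0.5, 1 and 2. For a change of -1 it recovered 82%. How the fit behaves with nearly alike arrays or with accession sets was not tested there. The simulation therefore gives no support to the count of called genes in these arrays. Named genes were the 12 largest rises and 12 largest falls among called genes without overlap, with a higher group mean of at least 6 and no clone names, up to 2 called members of each of 36 pathway lists, and Wt1. Other list members, Pom121, Col2a1, Cdkn1a and the 7 promoter motifs were chosen after their values were seen. Alternatives (other array sets, probe set rules, normalizations, variance models, blocks and left-out arrays) were planned, and list counts without Wt1-null replicate 1 or with replicates 3 and 4 averaged were added after seeing the data. Other probe sets are given where they differ in sign or are much smaller in change. The members, lists, rule and fit were chosen with earlier results of these data known, so lists are described by counts and medians and not tested. The oncogene is not reported here by name.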

Additional observations from a re-analysis of the deposited data

Results flagged for a closer look

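Where arrays are independent, chance puts about 1 in 20 groups past the limit used here for an array that lies apart. Of 124 groups of the named genes, 11 passed it. The Wt1-null groups held a pair of nearly identical arrays, so that chance rate cannot be applied to them. Flags in the Wt1-null groups therefore describe the values and test nothing. Wt1-null replicate 1 lay apart from the other 3 Wt1-null arrays, on the side of the controls, for Atf5 (11.92), Car6 (6.57), Pck2 (11.83), Acot2 (9.38), Aldh18a1 (12.41), Ereg (11.14) and Srf (9.49). Wt1-null replicate 5 was lowest for Nudt6 (9.93). Control replicate 1 was the highest control for Lss (10.80) and Tnc (12.30), and control replicate 2 the lowest for Csf1 (10.89).

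The change in Wt1-null against control differed from that in double against oncogene for Trib3, by -3.22, and for Car6, by -2.06, by the limma interaction. Both had a limma adjusted p of 0.0481, and neither passed without oncogene replicate 4 and double replicate 4. All oncogene and double arrays received Cre, and their means were 7.08 and 7.32 for Trib3 and 5.30 and 5.23 for Car6. The Car6 means were close to the top of the background range, 5.06, which left little room for a fall between these groups.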

How the results depend on the processing

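The count of 904 called genes was unstable. It was 599 with Wt1-null replicate 2 added, 13 with 21 arrays of all 4 groups, 19 with all 22 arrays, 3 with Wt1-null replicates 3 and 4 averaged, 116 with the accession set as a fixed block, 3 with it as a random block and 0 within accession set 2 (2841 at an unadjusted p below 0.05, limma). Array weights raised it to 6918, and a limit of 1 on the log2 change left 150. Leaving out 1 array at a time gave 0 (without Wt1-null replicate 4, with 3037 at an unadjusted p below 0.05) to 2505 (without Wt1-null replicate 1). The count was 13 without control replicate 3, 12 without control replicate 4, 115 without control replicate 5, 1812 without control replicate 1, 510 without control replicate 2, 4 without Wt1-null replicate 3 and 564 without Wt1-null replicate 5. Other normalizations, probe set rules, filters and an Xist covariate gave 629 to 1103. Of 62 named genes, 59 lost their call with replicates 3 and 4 averaged and 61 within set 2. Of 4 same-numbered pairs, those numbered 1, 3 and 4 deviated apart (r = -0.25, -0.18 and -0.12 over genes) and number 5 together (r = 0.45), so the numbers were not taken to pair the arrays. Wt1-null replicate 5 was also the 1 array of the 4 that correlated best with the control of its own number. With the replicate block 14 genes were called and 54 named genes lost their call. The interaction called 2 genes, and 0 without oncogene replicate 4 and double replicate 4. Among list medians, with the set as a fixed block or within set 2, ATF4 stood at -1.11, cholesterol synthesis at -0.36 and MAPK feedback at 0.46. With Wt1-null replicate 2 or all 22 arrays, cholesterol synthesis stood at -0.33 and YAP and TAZ targets at 0.53. Cholesterol synthesis was -0.091 over the mean of probe sets. Leaving out 1 array gave -0.50 to -0.25 for NRF2 and glutathione and 0.23 to 0.62 for immediate early genes. The cause of these shifts was not tested. Genes near background, Wt1 among them, could not show a fall. Since 776 of the 904 genes did not overlap between groups, their direction in refits of the same arrays is no sign of stability. Replicate 2, outside the fit, lay beyond the controls on the other side for 29 genes that rose and 47 that fell. It lay within the control range for 112 and 125. The same 5 control arrays served to call these genes, which favours the same side, so this is no independent check. In double against oncogene 368 of the 904 kept their sign.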
